A study of Capra hircus with 11 samples.

Results

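The miRNAs described here carry bovine names numbered from 2286 to 2904, and they were chosen by that number alone, with any letter or arm of the hairpin. They made up 51 of the 637 names listed in small RNA libraries of goat omental fat. Such numbers were given out in order of deposit when small RNAs of cattle were sequenced, so neighbours in number need not be relatives, and most of these miRNAs have no established function. A miRNA is cut from the stem of a short hairpin transcript. The Drosha and Dicer enzymes release a duplex whose arms are called 5p and 3p, and the arm loaded into an Argonaute protein guides it to partly matching messenger RNAs.

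The libraries came from Alpine goats (Capra hircus) giving milk near their peak yield, 48 ± 2 days from kidding when the trial began. Of these, 6 goats had no feed in the 48 h before slaughter, and 5 control goats kept free access to the standard diet of orchardgrass hay and concentrate. All goats had eaten that diet for 2 weeks, and every library is from a separate animal. Whole omental fat was extracted, so fewer cells of a type and less RNA per cell cannot be told apart.

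The libraries held 16974441 to 25389788 miRNA reads, and no library stood out as a copy of another. All 7 mesenchymal and fat-associated miRNAs checked, such as miR-143 and miR-10b, had reads in every library and summed to 383903 to 508359 RPM (reads per 1000000 miRNA reads) after feed deprivation and 389978 to 509058 RPM in controls. No miRNA marks fat cells alone, so this shows a mesenchymal tissue and no more. Both listed neuronal names of the 3 checked were at most 0.236 RPM together, and the liver miRNA miR-122 was between 0.0504 and 7.73 RPM. Striated muscle miRNAs summed to 31.1 to 153 RPM after feed deprivation and 44.7 to 185 RPM in controls. Epithelial miRNAs summed to 10.6 to 34.1 RPM and 7.01 to 27.0 RPM. All 6 leukocyte miRNAs checked, such as miR-142-5p and miR-223, had reads in every library, and their sum lay higher after feed deprivation, at 2118 to 3521 RPM, than in controls, at 1271 to 1873 RPM, with no overlap.

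Detection was broad in name and thin in reads. All 51 names had at least 1 read in at least 1 library, and so had the other names listed, which means that the deposited list holds names seen at least once. Among the 51, 19 had a read in all 11 libraries, 6 in 6 to 10 libraries, 14 in 2 to 5 libraries and 12 in a single library. Those in 6 to 10 libraries were miR-2331-3p, miR-2331-5p, miR-2332, miR-2435, miR-2448-3p and miR-2903. Those in 2 to 5 libraries had 10 reads or fewer in total, miR-2399-5p with 10 and miR-2328-5p with 8 having the most. The 11 names with 1 read in total were miR-2300b-3p, miR-2307, miR-2330-5p, miR-2340, miR-2382-5p, miR-2397-3p, miR-2404, miR-2447, miR-2448-5p, miR-2473 and miR-2484. With 10 reads in a library as the minimum, 17 of the 51 were detected. A feed-deprived library held 28.2 ± 3.25 of the 51 names (SD, n = 6), and a control library 28.6 ± 2.41 (SD, n = 5). At the depth of the shallowest library the expected numbers were 26.8 ± 2.49 after feed deprivation and 27.6 ± 1.87 in controls.

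Some names were seen in 1 group only, and all of them rested on a few reads. Feed-deprived libraries alone held 9 names and control libraries alone held 5, while 37 were seen in both groups. The most reads of any of these 14 names was 4, for miR-2335, in feed-deprived replicates 1 and 5. A count of 0 in a library allows a level of up to 3 reads, which is 0.118 to 0.164 RPM in the feed-deprived libraries and 0.132 to 0.177 RPM in the control libraries. These limits hold for single libraries, and the libraries of a group together set a lower one, which is not given here. An absence of these names from a group could not be shown by either.

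All 51 names together took 12338 reads, or 0.00538% of all miRNA reads. miR-2478 alone gave 5942 of them, 48.2% of the reads of these miRNAs, and the 9 names with the most reads gave 90.9%. miR-2478 was 148th among all 637 names by reads, and miR-2904, the next, was 216th. Adapter ligation favours some small RNAs over others, so shares of reads give an order within these libraries and not molar amounts.

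**Figure D1:**
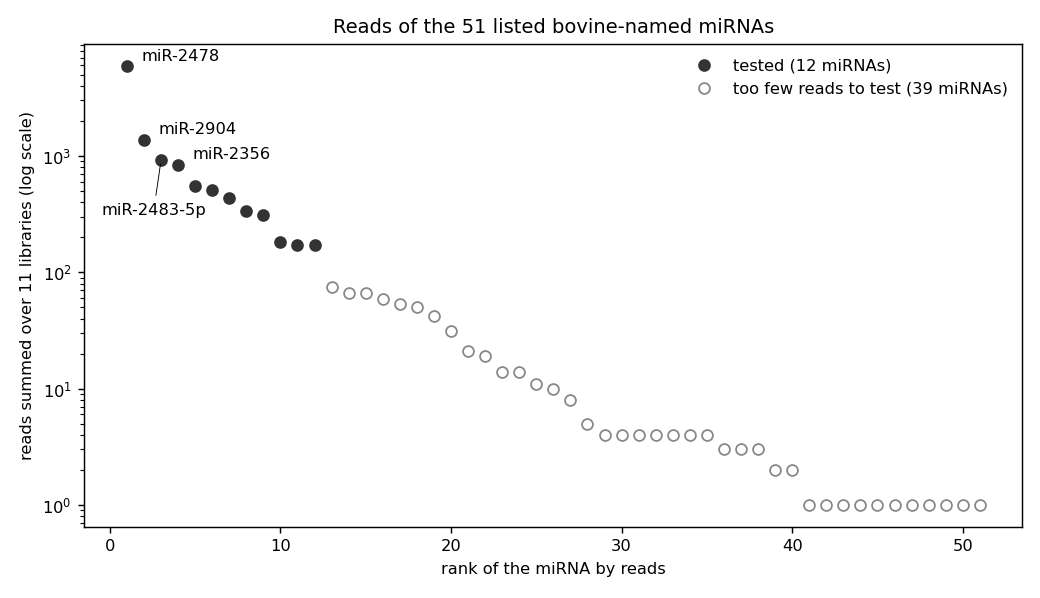
Reads summed over the 11 libraries (vertical axis, log scale) for each of the 51 miRNAs, ordered by reads (horizontal axis). Filled points are the 12 miRNAs with enough reads for the test and open points the other 39. miR-2478, with 5942 reads, stands well above the next, miR-2904 with 1376, and 11 names lie at 1 read.

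Thin coverage of many names was shared in part with the miR-2284 and miR-2285 family and with names numbered 6000 and above. Of the 51 miRNAs, 37.3% had a read in every library, with a median of 10 reads in total, and 12 had enough reads to be tested. The ruminant miR-2284 and miR-2285 family, a large group of related hairpins, had a read in every library for 54.8% of its 124 names, with a median of 61 reads in total. Among the 80 names numbered 6000 and above this was 28.8%, with a median of 13.5 reads. Among the other 382 names, which hold most of the miRNAs conserved across mammals, it was 78.0%, with a median of 1852 reads in total. The share under 10 reads in total was 49.0% for the miRNAs numbered 2286 to 2904, 29.0% for the miR-2284 and miR-2285 family, 43.8% for the names from 6000 and 9.16% for the other names. Summed levels differed more, at 63.2 RPM after feed deprivation and 40.9 RPM in controls for the miRNAs numbered 2286 to 2904. They were 657 and 649 RPM for the miR-2284 and miR-2285 family, and 3476 and 3999 RPM for the names from 6000. Each sum leaned on its highest name, which had 5942, 101822 and 685746 reads in the same order. The sums are therefore not levels of a typical name. These counts and sums come from 1 pipeline and carry no test.

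RefSeq's list of goat genes (assembly ARS1.2) holds 9 of the 45 hairpins behind these names among its 264 miRNA genes. They account for 12 listed names, 4 of which were tested, and 8 of the 9 hairpin genes overlap the annotated extent of a protein-coding gene. The share among all 264 miRNA genes is not given here, so the overlap cannot be called particular to these names. MIR2411 overlaps UBAP2L, which encodes a stress granule protein, and MIR2483 overlaps TENM1, which encodes a teneurin of the cell surface. MIR2318 overlaps MADD. MIR2331 overlaps RAD51D, a DNA repair gene. MIR2332 overlaps UTP6, MIR2335 overlaps GLOD4, MIR2404 overlaps TAF1D and MIR2432 overlaps IL23A, which encodes a subunit of the cytokine interleukin 23. The ninth, MIR2290, lies between RAB11A and a transfer RNA gene. The genome used by the authors is not given in the sources used here, so the table serves for names and neighbours and no positions are given.

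The comparison of feed-deprived with control goats asks how these miRNAs respond to 48 h without feed. Of the 12 miRNAs tested, 0 passed in limma at an adjusted p under 0.05, in either direction, against 3 of all 360 tested names (0.833%), all higher. On the recovered reads edgeR and voom also called 0 of the 12, against 3 (0.833%) and 4 (1.11%) of the 360. DESeq2 gave no p for miR-2356 and called 0 of the other 11, against 9 (2.51%) of the 358 names with an adjusted p. At an unadjusted p under 0.05 limma counted 2 of the 12, miR-2478 and miR-2411-3p, against 42 of the 360 (11.7%). The same 2 were counted by edgeR, DESeq2 and voom, against 42 (11.7%), 41 (11.5%) and 39 (10.8%) of all names in each. With library totals limma counted miR-2478 alone, and with upper-quartile factors miR-2411-3p alone. It counted 0 without feed-deprived replicate 2, without feed-deprived replicate 4 and without control replicate 2. The groups overlapped for all 12, whereas 6 of the 360 names (1.67%) had groups that did not overlap. The log2 difference, feed-deprived minus control, was positive for 5 and negative for 7 of the 12, with a median of -0.05 and a range of -0.58 to 0.72. Over all 360 names the median was 0.00397. With library totals as the only scaling 8 of the 12 were positive, and with upper-quartile factors 4.

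The values below are normalised reads, the unit deposited by the authors, in which 1 read was worth 0.607 to 1.33. Means are given with their SD over goats, and differences on the log2(value + 1) scale with the standard error (SE) and 95% interval from limma.

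**Figure D2:**
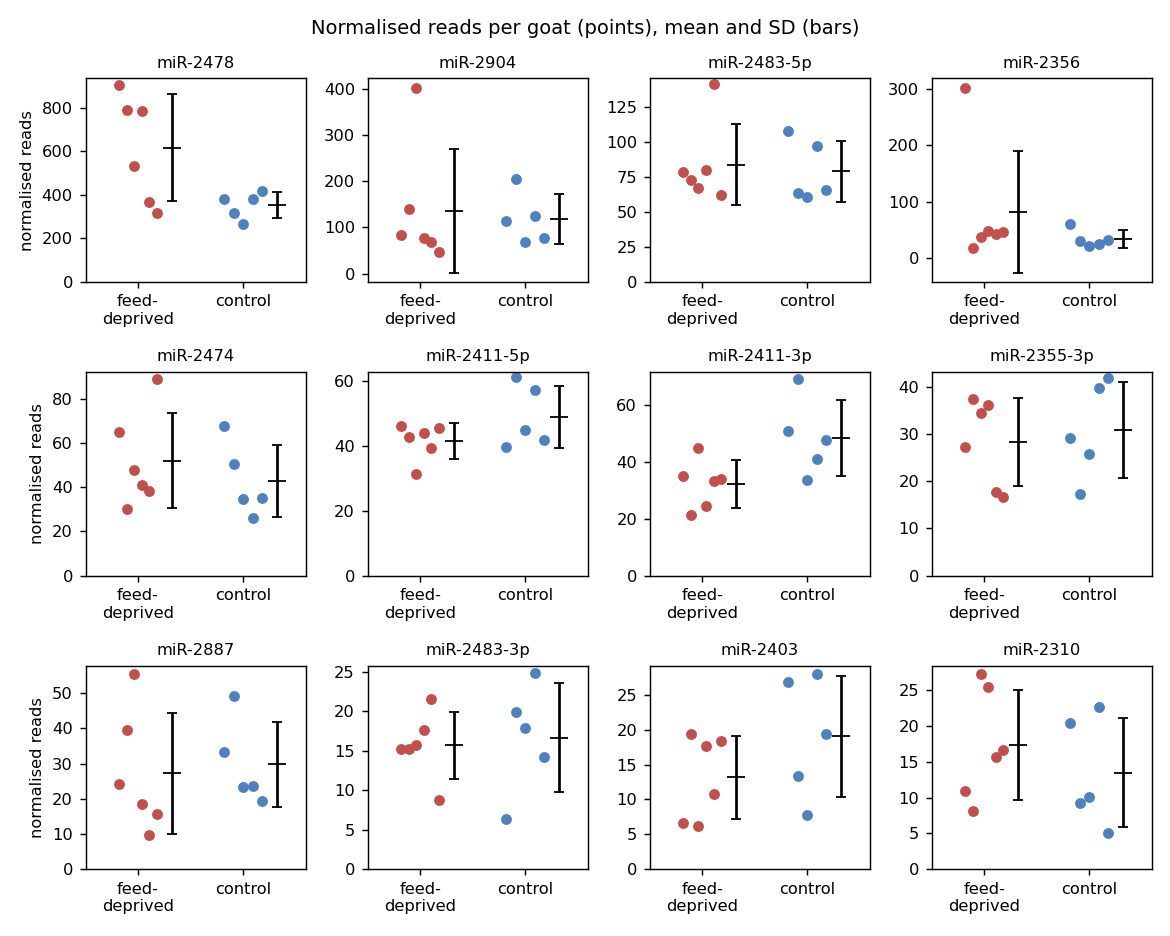
Normalised reads per goat (vertical axes, linear and separate for each panel) of the 12 tested miRNAs in 6 feed-deprived and 5 control goats, with mean and SD as black bars. The groups overlap in every panel, and single goats stand high for miR-2356 (303) and miR-2904 (403).

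miR-2478 was the most abundant of these miRNAs and had the smallest p. Its annotated sequence has been noted in cattle to resemble the end of a transfer RNA, which was not checked here against any sequence. It had 904, 791, 533, 788, 366 and 315 normalised reads in feed-deprived replicates 1 to 6, against 379, 315, 266, 383 and 417 in control replicates 1 to 5. Replicates 1 to 4 of the feed-deprived goats lay above all controls, while replicates 5 and 6 lay within the control range. The means were 616 ± 246 after feed deprivation (SD, n = 6) and 352 ± 60.7 in controls (SD, n = 5). The log2 difference was 0.71 ± 0.287 (SE), with a 95% interval of 0.10 to 1.33, and it did not pass (limma adjusted p = 0.355).

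Pooled over goats, miR-2478 had 4318 reads after feed deprivation and 1624 in controls, a ratio of normalised rates of 1.78. Its exact 95% interval of 1.69 to 1.89 covers counting error only, and the spread between goats of a group was 68.6 times the variance that counting alone would give. The spread between goats, far more than counting error, therefore sets the width of the limma interval. The difference stayed positive when any 1 library was left out, being lowest at 0.58 (without feed-deprived replicate 1) and highest at 0.89 (feed-deprived replicate 6 left out), with limma adjusted p-values of 0.162 to 0.561.

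Markers of blood cells varied over the same goats. The summed leukocyte miRNAs were 54245, 46123, 42656, 60421, 46218 and 61575 normalised reads in feed-deprived replicates 1 to 6. The highest sum, in replicate 6, went with the lowest miR-2478 of that group. The next highest, in replicates 4 and 1, went with high miR-2478, at 788 and 904 normalised reads. In controls this sum was between 31301 and 37881. The 3 red blood cell miRNAs, miR-451, miR-144 and miR-486, summed to 131837 to 348041 normalised reads after feed deprivation and 116344 to 331505 in controls. Among feed-deprived goats this sum was highest in replicates 2, 1 and 4, at 348041, 314978 and 311698, the 3 goats with the most miR-2478, and lowest in replicate 6. Among controls it was highest in replicates 2 and 3, at 331505 and 304722, the 2 goats with the least miR-2478. The part of blood cells in the difference of miR-2478 was not tested.

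Both arms of the miR-2411 hairpin were recovered at like levels. miR-2411-3p had 35.2, 21.3, 44.9, 24.5, 33.4 and 34.0 normalised reads in feed-deprived replicates 1 to 6, against 51.0, 69.2, 33.6, 41.0 and 47.8 in control replicates 1 to 5. Replicates 2, 4 and 5 of the feed-deprived goats lay below all controls, and the other 3 lay within the control range. The means were 32.2 ± 8.42 after feed deprivation (SD, n = 6) and 48.5 ± 13.3 in controls (SD, n = 5). The log2 difference was -0.58 ± 0.258 (SE), with a 95% interval of -1.13 to -0.02, and it did not pass (limma adjusted p = 0.423).

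miR-2411-5p, the other arm of that hairpin, had 46.1, 42.6, 31.3, 44.0, 39.3 and 45.4 normalised reads in feed-deprived replicates 1 to 6, against 39.6, 61.2, 44.9, 57.1 and 41.9 in control replicates 1 to 5. Only feed-deprived replicates 3 and 5 lay outside the control range, both below it. Its log2 difference was -0.22, with a 95% interval of -0.67 to 0.22 (limma adjusted p = 0.800). Its goats differed little beyond counting error, with a variance 1.15 times that of counting, against 2.54 times for miR-2411-3p.

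**Figure D3:**
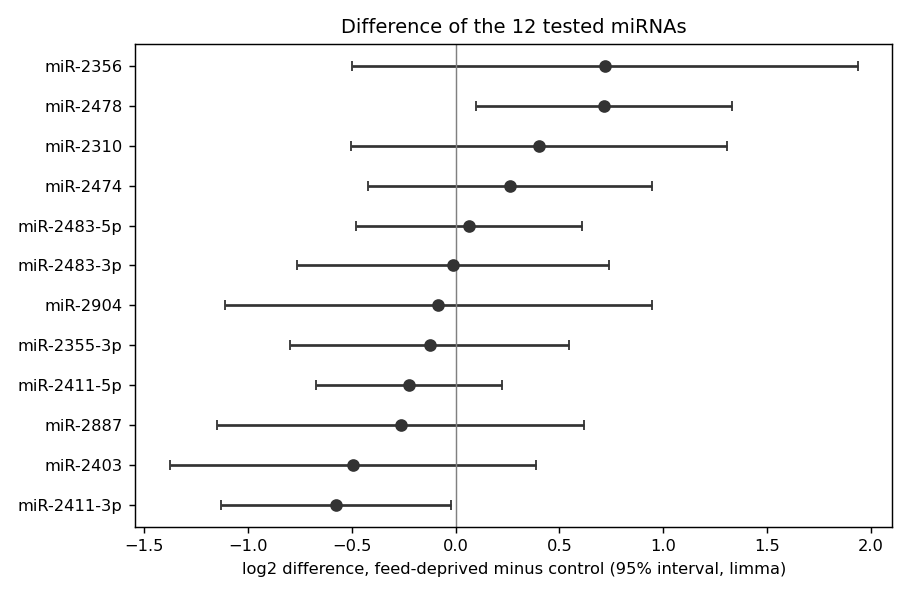
Log2 difference, feed-deprived minus control, of the 12 tested miRNAs (points) with the 95% interval from limma (bars), ordered from the lowest at the bottom. The intervals of miR-2478 (0.10 to 1.33) and miR-2411-3p (-1.13 to -0.02) leave out 0 before adjustment for the 360 tests, and the other 10 hold it.

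For 3 hairpins every goat had enough reads of the pair to give a share of the arms. The 5p arm gave 56.7% ± 9.03 of the miR-2411 reads after feed deprivation (SD, n = 6) and 50.5% ± 6.67 in controls (SD, n = 5), so neither arm dominated. For miR-2483 the 5p arm gave 84.0% ± 2.65 after feed deprivation and 81.9% ± 7.38 in controls. For miR-2355, a hairpin also annotated in human, the 3p arm took nearly all reads. The 5p arm had 4 reads in all, or 1.18% of the pair with an exact 95% interval of 0.322% to 2.99%. Exact two-sided permutation tests of the 5p share between the groups gave p = 0.238 for miR-2411, 0.558 for miR-2483 and 0.848 for miR-2355, and adjusted p-values over the 3 pairs of 0.714 to 0.848. The 5p arm of miR-2355 had a read in only 3 of the 11 libraries. That is too few for its test to show a difference, whichever goats held them. The other hairpins with both arms listed, miR-2331, miR-2330 and miR-2448, had too few reads for such a share in each goat, with 35 reads in total at most in a pair, of which miR-2331 gave 14 from the 5p arm and 21 from the 3p arm.

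**Figure D4:**
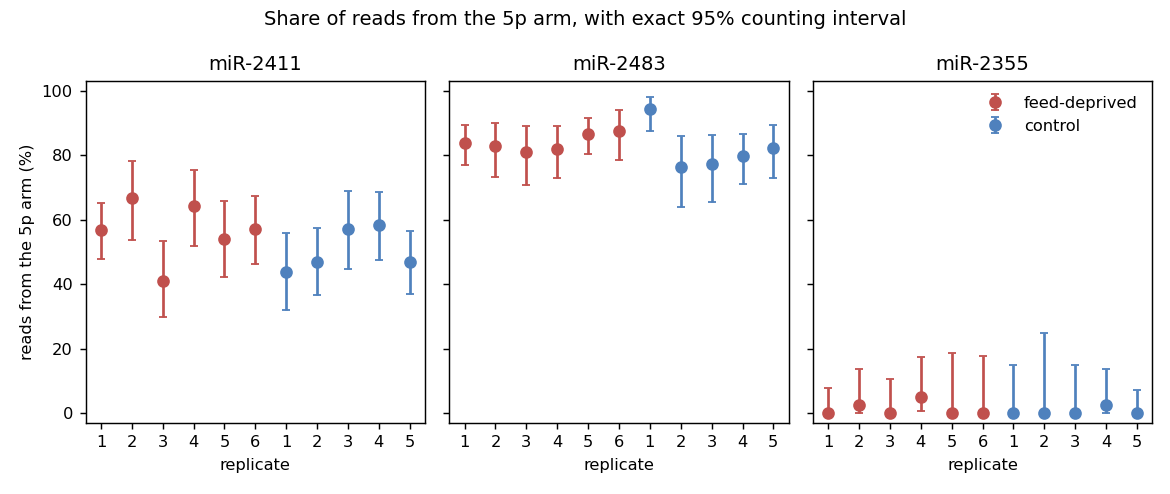
Percent of reads of each hairpin that came from the 5p arm (vertical axis) in each goat (horizontal axis, replicate within group), with the exact 95% counting interval. The shares lie between 41.1% and 66.7% for miR-2411, between 76.2% and 94.4% for miR-2483, and at 5.13% or less for miR-2355.

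miR-2483-5p, the main arm of its hairpin, had 78.3, 73.0, 66.9, 80.2, 141 and 62.0 normalised reads in feed-deprived replicates 1 to 6, against 108, 63.8, 60.6, 97.0 and 65.4 in control replicates 1 to 5. All feed-deprived goats except replicate 5 lay within the control range. The log2 difference was 0.06, with a 95% interval of -0.48 to 0.61 (limma adjusted p = 0.984). It was -0.10 without feed-deprived replicate 5. The lesser arm, miR-2483-3p, had 8.73 to 21.6 normalised reads after feed deprivation, with a median of 15.4, and 6.38, 19.9, 17.9, 24.8 and 14.2 in control replicates 1 to 5. Its log2 difference was -0.01, with a 95% interval of -0.76 to 0.74 (limma adjusted p = 0.990).

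miR-2356 had its largest value in 1 goat. It had 303, 17.2, 37.6, 47.0, 42.3 and 46.3 normalised reads in feed-deprived replicates 1 to 6, against 60.0, 30.6, 20.2, 23.7 and 31.8 in control replicates 1 to 5. Replicate 1 of the feed-deprived goats, with 499 reads, was above all others, and replicate 2 was below all controls. The log2 difference was 0.72 ± 0.565 (SE), with a 95% interval of -0.50 to 1.94 (limma adjusted p = 0.752), and it was 0.21 without feed-deprived replicate 1. On the recovered reads it was 1.32 in edgeR (adjusted p = 0.437) and 1.30 in DESeq2, which gave it no p. An exact two-sided permutation test of this 1 miRNA, chosen after its values were seen, gave p = 0.307 with all libraries and p = 0.563 without feed-deprived replicate 1.

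miR-2904 and miR-2887 varied together from goat to goat. Within groups the variance of miR-2904 was 87.8 times that of counting and of miR-2887 8.01 times, in a range over the 12 tested miRNAs from 1.15 times for miR-2411-5p to 97.7 times for miR-2356. miR-2904 had 84.3, 139, 403, 76.3, 68.8 and 47.1 normalised reads in feed-deprived replicates 1 to 6, against 114, 206, 69.5, 124 and 76.3 in control replicates 1 to 5. miR-2887 had 24.3, 39.6, 55.4, 18.6, 9.84 and 15.7 in feed-deprived replicates 1 to 6, against 33.2, 49.2, 23.5, 23.7 and 19.3 in control replicates 1 to 5. Feed-deprived replicate 3 was highest for both, and control replicate 2 was the highest control for both. The log2 difference of miR-2904 was -0.08, with a 95% interval of -1.11 to 0.95 (limma adjusted p = 0.984), and that of miR-2887 was -0.26, with an interval of -1.15 to 0.62 (limma adjusted p = 0.917). Without feed-deprived replicate 3 these were -0.48 and -0.51, and neither passed.

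Across the 11 goats the log2 levels of miR-2904 and miR-2887 had a Pearson r of 0.86 (permutation p = 5e-04, adjusted p = 0.033) and a Spearman rho of 0.93 (permutation p = 0.00013, adjusted p = 0.00858). The adjustment ran over all 66 pairs of the 12 tested miRNAs, and this was the 1 pair that passed. Without the 2 goats farthest from the median of miR-2887, r was 0.92. After removal of the group means it was 0.87, and among the 6 feed-deprived goats alone it was also 0.87. The arms of miR-2411 had an r of 0.24 (permutation p = 0.48, adjusted p = 0.984) and a Spearman rho of 0.13 (permutation p = 0.71). Their r was -0.27 without the 2 farthest goats and -0.56 among feed-deprived goats alone. The arms of miR-2483 had an r of 0.08 (permutation p = 0.83, adjusted p = 0.984) and a Spearman rho of 0.16 (permutation p = 0.63). Their r was 0.59 without the 2 farthest goats and 0.77 among feed-deprived goats alone. Within groups the variance was 1.15 (5p) and 2.54 (3p) times that of counting for miR-2411. It was 8.12 (5p) and 1.75 (3p) times for miR-2483. With 1 arm of each pair so near counting error, a low r does not show that the arms vary apart.

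**Figure D5:**
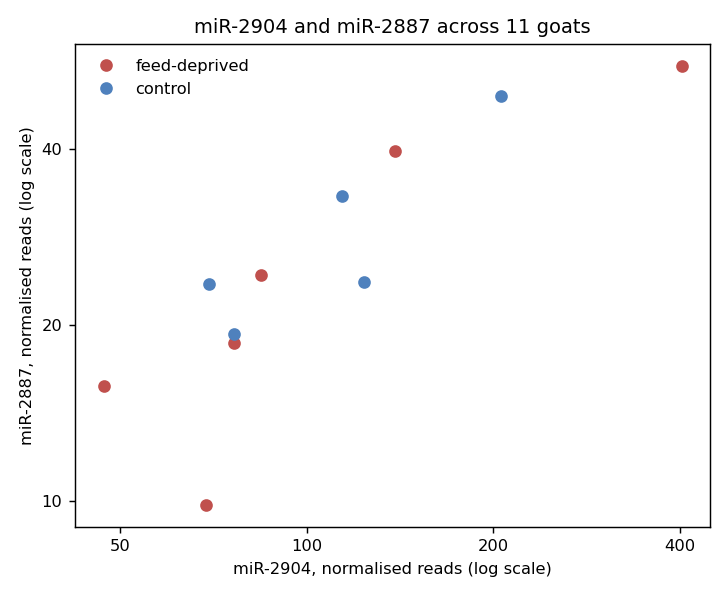
Normalised reads of miR-2904 (horizontal axis, log scale) and miR-2887 (vertical axis, log scale) in each of the 11 goats, feed-deprived and control. Goats high in one are high in the other, with feed-deprived replicate 3 at the top right (403 and 55.4).

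The remaining tested miRNAs had fewer than 100 normalised reads in every goat. miR-2474 had 30.4 to 89.0 normalised reads after feed deprivation, with a median of 44.6, and 67.6, 50.5, 34.8, 25.9 and 35.2 in control replicates 1 to 5. Its groups overlapped, with feed-deprived replicate 6 above all controls, and its log2 difference was 0.26 (95% interval -0.42 to 0.94, limma adjusted p = 0.872). miR-2355-3p had 16.6 to 37.5 after feed deprivation, with a median of 30.9, and 29.3, 17.3, 25.8, 39.9 and 41.9 in control replicates 1 to 5. Both groups covered much the same range, and the log2 difference was -0.12 (95% interval -0.80 to 0.55, limma adjusted p = 0.964).

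The 2 lowest of the tested miRNAs were miR-2403 and miR-2310. miR-2403 had 6.27 to 19.3 normalised reads after feed deprivation, with a median of 14.2, and 26.8, 13.3, 7.85, 28.0 and 19.3 in control replicates 1 to 5. Its log2 difference was -0.50 (95% interval -1.38 to 0.38, limma adjusted p = 0.757). miR-2310 had 8.12 to 27.2 after feed deprivation, with a median of 16.2, and 20.4, 9.31, 10.1, 22.6 and 5.03 in control replicates 1 to 5. Its log2 difference was 0.40 (95% interval -0.50 to 1.31, limma adjusted p = 0.834). Feed-deprived replicates 3 and 4 were the 2 goats above all controls for miR-2310. The interval of miR-2403 holds both 0 and a log2 difference of -1, and that of miR-2310 both 0 and 1.

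The 39 untested miRNAs had 74 reads or fewer in total. The highest, miR-2318, had 26, 6, 2, 14, 3 and 6 reads in feed-deprived replicates 1 to 6, against 4, 3, 2, 6 and 2 reads in control replicates 1 to 5. Feed-deprived replicates 1 and 4 lay above the controls in normalised reads, and the other 4 lay among them. miR-2319a and miR-2440 had 66 reads each, miR-2366 had 59, miR-2312 had 50, miR-2432 had 42 and miR-2332 had 31, and all of these except miR-2332 were present in every library. The fit with no filter on low values gave 0 of the 51 an adjusted p under 0.05 in limma, against 2 of all 629 names (0.318%). It gave 2 of the 51 an unadjusted p under 0.05, miR-2478 and miR-2387, against 51 of the 629 (8.11%). miR-2387, named here after its values were seen, had 5, 2, 1, 5, 3 and 1 reads in feed-deprived replicates 1 to 6, against 9, 4, 8, 12 and 3 reads in control replicates 1 to 5. Feed-deprived replicates 2, 3 and 6 lay below all controls in normalised reads, and its log2 difference in that fit was -1.37 (limma adjusted p = 0.330).

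Summed over the 51 miRNAs, feed-deprived libraries held 63.2 ± 25.6 RPM (SD, n = 6) and control libraries 40.9 ± 7.72 RPM (SD, n = 5). In normalised reads the sums lay closer, at 1196 ± 335 and 887 ± 131. Scaling by library totals, as RPM does, moved the median log2 difference of all tested names to 0.16. The feed-deprived libraries had 108, 68.5, 67.3, 57.0, 43.0 and 35.5 RPM in replicates 1 to 6, against 45.8, 42.3, 27.3, 44.2 and 45.0 RPM in control replicates 1 to 5. The groups overlapped, with feed-deprived replicates 1 to 4 above all controls. Without miR-2478 the sums were 30.5 ± 11.7 RPM after feed deprivation and 24.6 ± 4.998 RPM in controls. miR-2478 made up 50.3% ± 10.5 of these reads after feed deprivation and 39.9% ± 5.76 in controls.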

How the data were processed

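Small RNA libraries of omental fat from 6 feed-deprived and 5 control goats were compared. The authors deposited 1 list per library of mature miRNA names with a normalised signal. The names are bovine (bta prefix, omitted below), and reads of goat miRNAs that differ from them in sequence may be missed. The aligner, database version, build and normalization tool: not given in the sources used here. Per the labels' protocols, the TruSeq Small RNA kit was used, with no molecular identifier mentioned, so counting intervals (95%, exact) cover counting error only. In each library 100% of non-zero values were whole multiples of the smallest one, within 0.001 read, so whole reads were recovered. The factors matched DESeq2's within ratios of 0.997 to 1.002.

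Of 637 names, 629 were listed in every library, all 51 members among them, and edgeR's filterByExpr (minimum count 10) left 360. These were compared on log2(signal + 1), pseudocount 1, with limma 3.58.1 (variance trend, robust, two-sided) in R 4.3.3, with Benjamini-Hochberg adjusted p under 0.05 over the 360 as the threshold. edgeR 4.0.16, DESeq2 1.42.0 and voom on recovered reads, other pseudocounts, scalings and filters, and leaving out each goat were the alternatives. Shares, sums and correlations were computed with Python 3.11.15 and scipy 1.17.1, with 100000 resamples for correlations. The fits were tested on simulated data. Over all 55 pairs of libraries, the smallest chi-square of the read counts was 591 times its degrees of freedom, so none duplicated another.

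Members, marker lists and settings were chosen with earlier results of these data known. Values are given for miRNAs with a mean of 20 or more normalised reads, the 8 smallest p-values, and the other arm of these. Replicates are numbered in accession order, which pairs nothing.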

Additional observations from a re-analysis of the deposited data

Results flagged for a closer look

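In 4 of 28 groups of values, 1 goat lay apart from the others. About 1 in 20 would by chance if the values were independent and normally distributed. The rate for reads on a linear scale, and for sums that share members, was not tested. miR-2356 was high in feed-deprived replicate 1, with 303 normalised reads while the other 5 had 17.2 to 47.0, a gap of 0.896 of the group's range. miR-2483-5p was high in feed-deprived replicate 5, at 141 against 62.0 to 80.2, a gap of 0.768 of the range. miR-2904 was high in feed-deprived replicate 3, at 403 against 47.1 to 139, a gap of 0.742 of the range. Control replicate 3 was low for the sum of the 51 miRNAs, at 27.3 RPM against 42.3 to 45.8 in the other controls, a gap of 0.811 of the range.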

How the results depend on the processing

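No paired analysis was possible because the labels give no number, batch or animal that links goats across the groups. No tested miRNA passed in either direction under the alternatives run or without any 1 goat. All 12 were tested in each, except that DESeq2 gave no p for miR-2356, a mean of 10 CPM or more left 1, and no filter tested 51. The median log2 difference of the tested miRNAs, -0.05, was 0.11 with library totals, -0.22 with upper-quartile factors and 0.71 at a mean of 10 CPM or more, a filter that leaves miR-2478 alone, and -0.10 to 0.11 without 1 goat. The scalings move the median of all names to 0.16 (library totals) and -0.17 (upper quartile). miR-2904 was positive with library totals (0.078), edgeR (0.17) and DESeq2 (0.19), miR-2355-3p with library totals (0.033), miR-2483-3p with library totals (0.14), and miR-2483-5p was negative with upper-quartile factors (-0.11). The cause was not tested. Without 1 goat, miR-2904 ran from -0.48 to 0.14, miR-2483-5p from -0.10 to 0.19, miR-2355-3p from -0.31 to 0.0092 and miR-2483-3p from -0.30 to 0.15. At 10 reads in a library, 17 miRNAs were detected, and 48 to 51 at 1 read without 1 goat. The summed level, 63.2 RPM after feed deprivation and 40.9 RPM in controls, was 30.5 and 24.6 RPM without miR-2478, and 295 and 216 RPM when the reads of the 10 most abundant miRNAs are taken out of the total. Without 1 goat it was 54.3 to 68.8 RPM after feed deprivation and 39.7 to 44.3 RPM in controls. Depth limits the 39 untested miRNAs, with 74 reads or fewer each.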
